A study of Mus musculus with 6 samples.

Results

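The Dscam, Sidekick, Megf and teneurin genes encode cell surface proteins that help retinal neurons to space their cell bodies and to place their arbors in the layers of the inner plexiform layer. The 10 genes examined were Dscam, Dscaml1, Sdk1, Sdk2, Megf10, Megf11, Tenm1, Tenm2, Tenm3 and Tenm4. They were chosen by symbol from the 24060 genes of the count table, all 10 were present, and all 10 passed the filter on low counts.

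Retinal ganglion cells (RGCs), the output neurons of the retina, were purified from C57BL/6 mice by immunopanning, in which dissociated cells are first cleared of macrophages and then held on dishes by antibodies to CD90 (Thy1). RNA was sequenced from 3 samples at embryonic day 18 (E18, replicates 1, 3 and 4), when RGCs grow axons readily, and from 3 samples at postnatal day 5 (P5, replicates 6, 8 and 9), when this ability has been lost. No treatment or altered genotype is given, and neither the number of animals per sample nor a batch is given, so the p-values measure the spread between these samples. The column of E18 replicate 1 is headed with the numbers 1, 2 and 5, and whether it pools several preparations is not stated. The reads counted on genes came to 81213639 to 114512853 per sample. The 10 genes had 668 to 57598 reads per sample, for which the counting error is at most 3.87%, so the spread between samples sets their precision.

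Dscam and Dscaml1 are immunoglobulin superfamily proteins that bind their own kind on neighbouring cells, and their loss makes retinal neurons of one type clump and bundle their processes. The Sidekick proteins Sdk1 and Sdk2 are related homophilic adhesion molecules, and Sdk2 is known for joining an RGC type to an amacrine partner in one sublayer. Megf10 and Megf11 are receptors with EGF repeats that set the spacing of starburst amacrine cells and horizontal cells. Teneurins are large type II membrane proteins that bind one another and the latrophilins across contacts between cells, and Tenm3 is known for its part in the wiring of RGCs.

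The cells were checked against marker genes. The 10 RGC markers summed to 4928 to 5883 CPM (reads relative to library size, scaled by TMM) at E18 and to 5993 to 7449 CPM at P5. Nefl alone gave 1636 to 2134 CPM at E18 and 2361 to 3462 CPM at P5. Rbpms, which marks RGCs, was at 276 CPM or above in each sample. By edgeR's quasi-likelihood test, 4 RGC markers were lower at E18 and 2 higher, against 22.5% and 20.8% of all genes tested. Slc17a6, Thy1, Nefl and Pou4f3 were lower (log2 fold changes, E18 over P5, of -1.40, -1.16, -0.68 and -0.54). Isl1 and Sncg were higher (1.10 and 0.40). Markers of starburst amacrine cells were unevenly present. Their 5 genes summed to 69.6, 102.8 and 10.8 CPM in E18 replicates 1, 3 and 4, and to 5.38 to 5.93 CPM at P5. Sox2 alone gave 45.7, 69.3 and 0.950 CPM of these E18 sums, and 0.790 to 1.48 CPM at P5. The 8 markers of progenitors and dividing cells summed to 365, 85.0 and 25.3 CPM in the same E18 samples, against 11.6 to 28.5 CPM at P5. E18 replicates 1 and 3 therefore stood above E18 replicate 4 in the sums of these lists, but not in every list. In the bipolar, microglial, and endothelial and pericyte sums, E18 replicate 4 lay between E18 replicates 1 and 3. Among the E18 samples, the RGC sum was highest in replicate 4, at 5883 CPM against 4928 and 5094 CPM in replicates 1 and 3. Microglial markers summed to at most 2.33 CPM in any sample, and photoreceptor markers to at most 8.82 CPM. Markers of Müller glia and astrocytes summed to 322 to 355 CPM at E18 and 244 to 285 CPM at P5, of which Glul alone gave 313 to 326 and 230 to 273 CPM. Bipolar cell markers summed to 47.1 to 55.0 CPM at E18 and 69.1 to 97.0 CPM at P5, mostly Prkca, and endothelial and pericyte markers to 0.981 to 1.69 CPM at E18 and 3.93 to 5.89 CPM at P5. In bulk samples such as these, fewer cells of a type and less RNA per cell cannot be told apart.

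By edgeR's quasi-likelihood test, 4 of the 10 genes were higher at E18 (Megf10, Sdk1, Sdk2 and Tenm4) and 2 were lower (Tenm1 and Tenm3), with p-values adjusted over the 16449 genes tested. Of all genes tested, 43.4% were called, 20.8% as higher at E18 and 22.5% as lower, and the 6 calls among the 10 are to be read against that background. The median log2 fold change, E18 over P5, was 0.31 for the 10 genes and 0.0047 for all genes tested. The ages did not overlap in 6 of the 10 genes, against 56.1% of all genes tested. Megf10 aside, the changes were modest, with log2 fold changes between -0.54 and 0.75. Without E18 replicates 1 and 3, E18 replicate 4 stood alone and its spread was taken from P5, so only the size of the changes is given. The log2 fold changes of 5 of the 6 called genes were of similar size in that comparison, at 0.59 for Sdk1, 0.70 for Sdk2, -0.49 for Tenm1, -0.51 for Tenm3 and 0.35 for Tenm4, whereas that of Megf10 was 0.27 in place of 4.29.

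**Figure D1:**
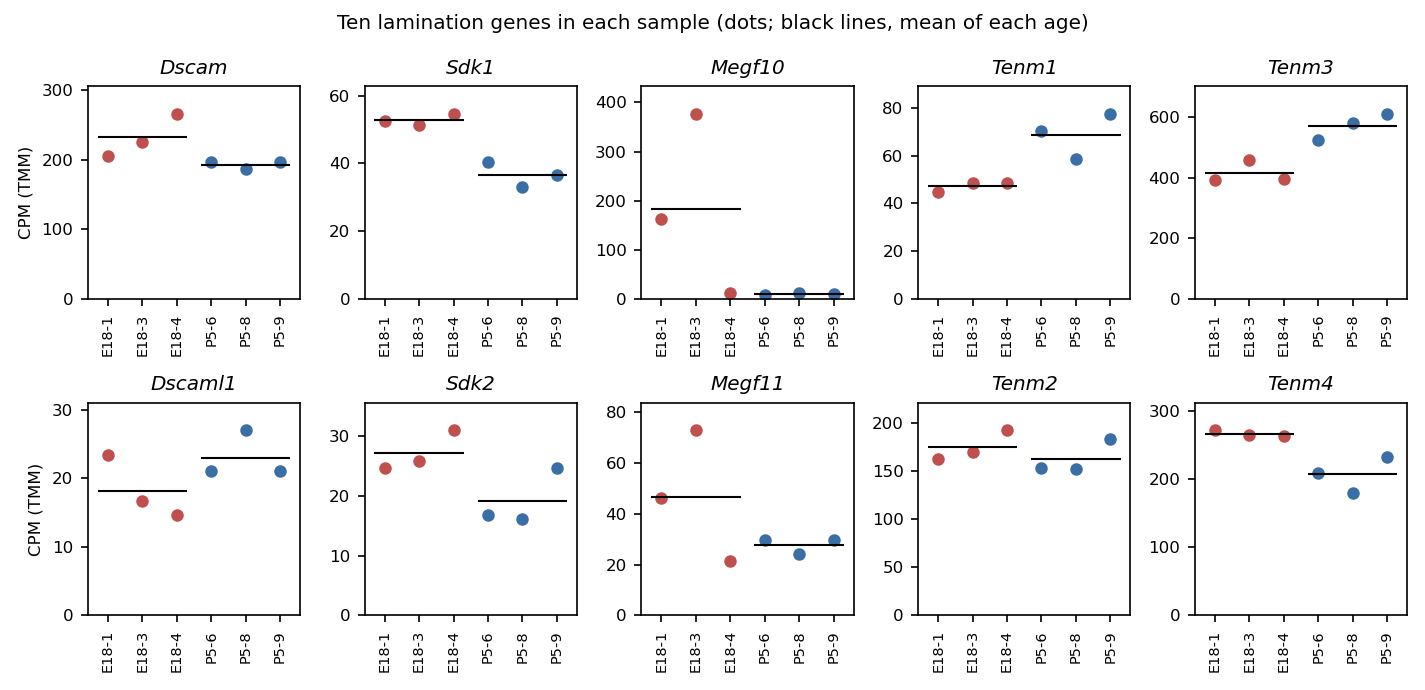
Expression of the 10 genes in each sample, in TMM-scaled CPM on a linear axis that starts at 0 in each panel. Red dots are E18 samples, blue dots P5 samples, and black lines the mean of each age. Megf10 reaches 163 and 377 CPM in E18 replicates 1 and 3 but 11.2 CPM in E18 replicate 4, close to the P5 samples, whereas the E18 samples of Sdk1 and Tenm1 lie close together.

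Sdk1 (chromosome 5 of mm10, 141241490 to 142215586, plus strand) was higher at E18. It had 52.5, 51.3 and 54.6 CPM in E18 replicates 1, 3 and 4 and 40.3, 33.0 and 36.7 CPM in P5 replicates 6, 8 and 9. Every E18 sample lay above every P5 sample, and the E18 samples had a coefficient of variation of 3.18%. The means were 52.8 ± 1.68 and 36.6 ± 3.66 CPM (SD, n = 3 each). On the log2 scale, E18 exceeded P5 by 0.53 (standard error, SE, 0.102, edgeR adjusted p = 0.00415), a 1.44-fold difference. The call was kept in each of the 6 fits that left out a sample.

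Sdk2 (chromosome 11, 113776374 to 114067046, minus strand) moved by a similar amount with less certainty. It had 24.6, 25.8 and 30.9 CPM in E18 replicates 1, 3 and 4 and 16.7, 16.1 and 24.6 CPM in P5 replicates 6, 8 and 9. The ages were separated only narrowly, since P5 replicate 9 lay just below the lowest E18 sample. The means were 27.1 ± 3.36 and 19.1 ± 4.70 CPM (SD, n = 3 each), with a log2 fold change of 0.50 (SE 0.177, edgeR adjusted p = 0.0465). The call was kept without P5 replicate 9 (log2 fold change 0.72, edgeR adjusted p = 0.00681) and lost in the fits without E18 replicate 1, 3 or 4 or without P5 replicate 6 or 8 (edgeR adjusted p = 0.0624 to 0.165). The count of Sdk1 relative to Sdk2 within a sample differed between the ages by less than the spread between samples. The log2 ratio averaged 0.97 ± 0.14 in the E18 group and 0.96 ± 0.35 in the P5 group (SD, n = 3 each), a difference of 0.0084 (two-sided exact permutation p = 1).

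Dscam (chromosome 16, 96590840 to 97170752, minus strand) had 205, 225 and 266 CPM in E18 replicates 1, 3 and 4 and 196, 186 and 196 CPM in P5 replicates 6, 8 and 9. All E18 samples lay above the P5 samples, although E18 replicate 1 did so by little. The P5 samples were close to each other, with a coefficient of variation of 2.92% against 13.3% at E18. The log2 fold change of 0.27 (SE 0.107) did not pass (edgeR adjusted p = 0.0724). It passed in 1 of the 6 fits that left out a sample, at 0.35 without E18 replicate 1 (edgeR adjusted p = 0.0469). In the other fits the edgeR adjusted p was 0.117 to 0.267, with a log2 fold change of 0.16 without E18 replicate 4.

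Dscaml1 (chromosome 9, 45426628 to 45753712, plus strand), the paralog of Dscam, had 23.4, 16.6 and 14.6 CPM in E18 replicates 1, 3 and 4 and 21.0, 27.0 and 21.0 CPM in P5 replicates 6, 8 and 9. E18 replicate 1 lay among the P5 samples and the other two E18 samples lay below them. Its log2 fold change was -0.34 (SE 0.188, edgeR adjusted p = 0.173). Without E18 replicate 1 it was -0.56, and the gene was called lower at E18 (edgeR adjusted p = 0.0383). This was the only call in the 6 fits that left out a sample, the others having an edgeR adjusted p of 0.179 to 0.437. E18 replicate 1 was also the highest sample in some markers of other retinal cells. Otx2, a factor of photoreceptor and bipolar precursors, was at 11.1, 3.40 and 0.618 CPM in E18 replicates 1, 3 and 4, and Crx, a factor of photoreceptors, at 6.15, 2.78 and 0.773 CPM, against at most 0.530 and 0.425 CPM at P5. Their part in the Dscaml1 values was not tested.

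The E18 samples were ordered oppositely in Dscam and Dscaml1, with E18 replicate 4 highest in the first and lowest in the second. The log2 ratio of Dscam to Dscaml1 counts was 3.13, 3.76 and 4.19 in E18 replicates 1, 3 and 4 and 3.22, 2.79 and 3.22 in P5 replicates 6, 8 and 9. The means of 3.69 ± 0.53 and 3.08 ± 0.25 (SD, n = 3 each) differed by 0.62, and the ages overlapped (two-sided exact permutation p = 0.3, adjusted p = 0.35 over 7 ratios and shares).

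The teneurins changed in opposite directions. Tenm3 and Tenm1 were lower at E18, Tenm4 was higher, and Tenm2 did not pass the test.

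Tenm3 (chromosome 8, 48227682 to 48843951, minus strand) had 392, 461 and 398 CPM in E18 replicates 1, 3 and 4 and 524, 581 and 612 CPM in P5 replicates 6, 8 and 9. All E18 samples lay below all P5 samples, with means of 417 ± 38.2 and 572 ± 44.6 CPM (SD, n = 3 each). This gave a log2 fold change of -0.46 (SE 0.0999, edgeR adjusted p = 0.00709), and it was called in each fit that left out a sample, at -0.53 to -0.41.

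Tenm1 (X chromosome, 42527866 to 43429126, minus strand) had 45.0, 48.6 and 48.5 CPM in E18 replicates 1, 3 and 4 and 70.5, 58.5 and 77.6 CPM in P5 replicates 6, 8 and 9. Again the ages did not overlap, and the E18 samples were tightly grouped at 47.3 ± 2.07 CPM against 68.8 ± 9.66 CPM at P5 (SD, n = 3 each). The log2 fold change was -0.54 (SE 0.116, edgeR adjusted p = 0.00669), and the call was kept in each fit that left out a sample.

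Tenm4 (chromosome 7, 96171246 to 96911093, plus strand) had 271, 264 and 262 CPM in E18 replicates 1, 3 and 4, and 209, 179 and 232 CPM in P5 replicates 6, 8 and 9. Every E18 sample lay above every P5 sample, and the E18 coefficient of variation, 1.75%, was the lowest of the 10 genes. The log2 fold change was 0.36 (SE 0.106, edgeR adjusted p = 0.0233). The call was lost without E18 replicate 1, E18 replicate 3, E18 replicate 4 or P5 replicate 6 (edgeR adjusted p = 0.0509 to 0.0723), with the log2 fold change at 0.35 to 0.37 in those fits.

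Tenm2 (chromosome 11, 36006656 to 37235964, minus strand) had 162, 170 and 192 CPM in E18 replicates 1, 3 and 4 and 153, 152 and 183 CPM in P5 replicates 6, 8 and 9. The ages overlapped, and the log2 fold change was 0.10 (SE 0.109, edgeR adjusted p = 0.472).

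**Figure D2:**
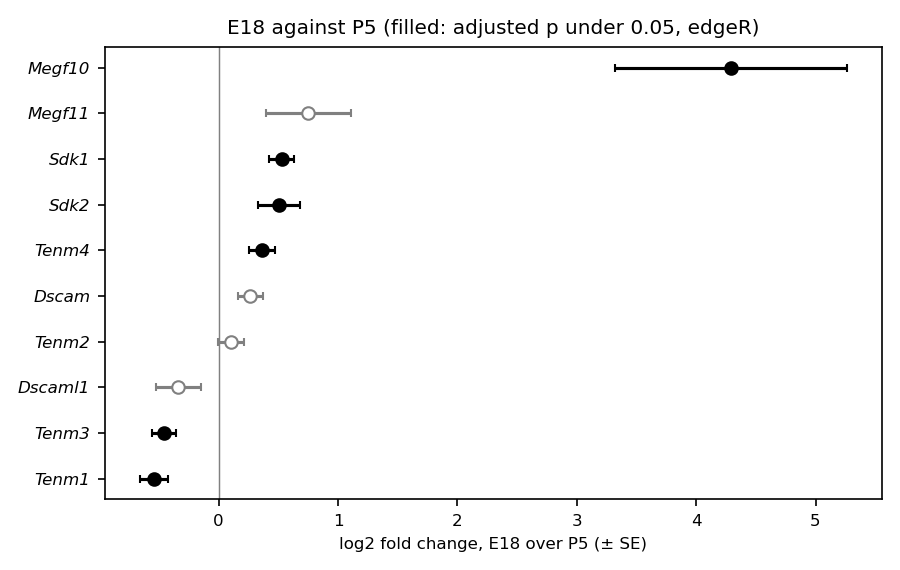
Log2 fold changes of E18 over P5 for the 10 genes on the horizontal axis, with bars of 1 standard error of the fitted model. Filled points passed edgeR's quasi-likelihood test (adjusted p below 0.05). Megf10, at 4.29, has the widest bar, and the other genes lie between -0.54 and 0.75.

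Within each sample, the make-up of the teneurin transcripts was compared from reads per kilobase of exon, which needs no scaling between libraries. Tenm3 made up 56.4%, 59.9% and 54.9% of the teneurin total in E18 replicates 1, 3 and 4 and 65.3%, 69.3% and 65.6% in P5 replicates 6, 8 and 9. Tenm4 made up 19.0%, 16.7% and 17.6% at E18 and 12.7%, 10.4% and 12.1% at P5. Tenm3 was thus the largest share in every sample, and it was smaller at E18 by 9.66 percentage points while that of Tenm4 was larger by 6.05. Tenm2 made up 21.4% ± 2.04 at E18 and 16.9% ± 0.637 at P5, and Tenm1 3.74% ± 0.110 and 4.63% ± 0.538 (SD, n = 3 each). The ages did not overlap in any of the 4 shares, which sum to 100% and are not independent. Each had a two-sided exact permutation p of 0.1, which is the smallest that 3 samples against 3 allow, and an adjusted p of 0.14 over 7 ratios and shares.

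**Figure D3:**
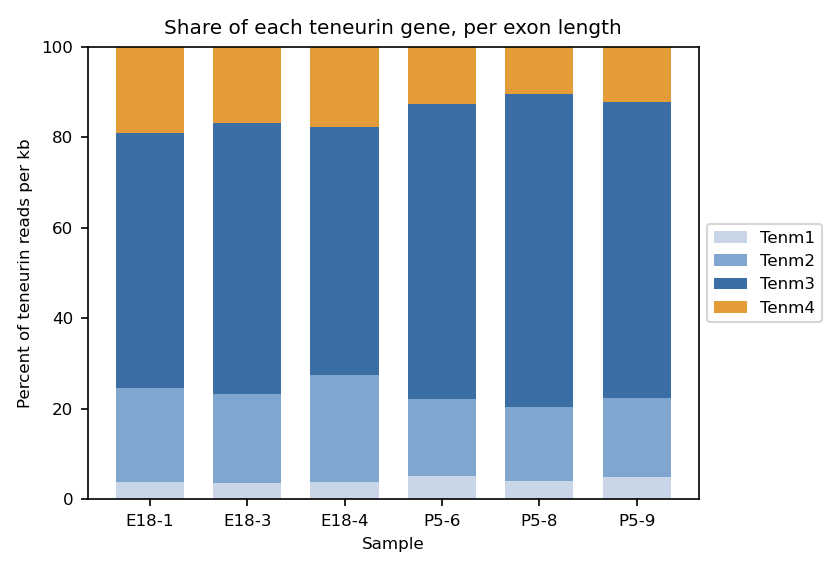
Share of each teneurin gene in the summed reads per kilobase of exon of the 4 genes, in percent, as stacked bars for each sample. The Tenm3 share is 54.9% to 59.9% at E18 and 65.3% to 69.3% at P5, and the Tenm4 share is 16.7% to 19.0% and 10.4% to 12.7%.

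Of the 6 partner genes of the teneurins, edgeR's test called 1 higher at E18 and 1 lower, against 43.4% called among all genes, and their median log2 fold change was -0.09. Both belong to the Flrt family, membrane proteins that bind latrophilins. Flrt3 had 52.5, 53.3 and 42.4 CPM in E18 replicates 1, 3 and 4 and 28.6, 28.5 and 23.9 CPM in P5 replicates 6, 8 and 9 (log2 fold change 0.87, SE 0.125, edgeR adjusted p = 0.00117). Flrt2 had 114, 125 and 148 CPM at E18 and 194, 185 and 203 CPM at P5 (log2 fold change -0.59, SE 0.109, edgeR adjusted p = 0.00344). Flrt1 had 12.8 ± 0.0370 and 14.3 ± 2.28 CPM (SD, n = 3 each), with a log2 fold change of -0.16 (edgeR adjusted p = 0.387).

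The latrophilins, the adhesion receptors that bind teneurins, are listed in the table under their older symbols as Lphn1, Lphn2 and Lphn3 (now Adgrl1, Adgrl2 and Adgrl3). Lphn1 had 355 ± 5.51 CPM at E18 and 373 ± 46.8 CPM at P5, and Lphn3 had 194 ± 9.52 and 209 ± 7.89 CPM (SD, n = 3 each). Neither passed the test, with log2 fold changes of -0.07 (SE 0.104) and -0.11 (SE 0.0827). Lphn2 had 124 ± 5.65 and 96.4 ± 18.7 CPM (SD, n = 3 each) and missed the threshold narrowly, with a log2 fold change of 0.37 (edgeR adjusted p = 0.0536), whereas DESeq2 called it (adjusted p = 0.0350). It was also called by edgeR without P5 replicate 8 (log2 fold change 0.52, adjusted p = 0.00202). It was not called when any other sample was left out (edgeR adjusted p = 0.0809 to 0.170).

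Megf10 differed between the E18 samples far more than any other of the 10 genes. It lies on chromosome 18 (57133090 to 57297467, plus strand). It had 163, 377 and 11.2 CPM in E18 replicates 1, 3 and 4 and 7.53, 11.4 and 9.24 CPM in P5 replicates 6, 8 and 9. E18 replicates 1 and 3 were 17.4 and 40.1 times the P5 mean, whereas E18 replicate 4 was 1.20 times that mean and lay within the P5 range, so the ages overlapped. The coefficient of variation was 99.95% at E18 and 20.6% at P5. Across all samples the log2 fold change was 4.29 (SE 0.971, edgeR adjusted p = 0.00819). It stayed called when any 1 sample was left out, at 3.22 without E18 replicate 3 and 4.85 without E18 replicate 4. With E18 replicate 4 alone against P5 it was 0.27.

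Megf11 (chromosome 9, 64385626 to 64709205, plus strand) followed the same order of samples at a smaller size. It had 46.1, 72.9 and 21.3 CPM in E18 replicates 1, 3 and 4 and 29.5, 24.1 and 29.8 CPM in P5 replicates 6, 8 and 9. E18 replicates 1 and 3 lay above all P5 samples, and E18 replicate 4 lay below all of them. The log2 fold change of 0.75 (SE 0.356) did not pass (edgeR adjusted p = 0.118). It was 1.10 and was called without E18 replicate 4 (edgeR adjusted p = 0.00440). Without E18 replicate 3 it was 0.28 and was not called, and with E18 replicate 4 alone against P5 it was -0.38.

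The log2 ratio of Megf10 to Megf11 counts was 1.82, 2.37 and -0.92 in E18 replicates 1, 3 and 4, and -1.97, -1.08 and -1.69 in P5 replicates 6, 8 and 9. Megf11 was thus the more counted of the pair at P5 and in E18 replicate 4, and Megf10 in the other two E18 samples. The difference of the age means was 2.67, without overlap between the ages (two-sided exact permutation p = 0.1, the smallest possible, adjusted p = 0.14 over 7 ratios and shares).

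The order of the E18 samples in Megf10, with replicate 3 highest and replicate 4 lowest, was also that of 4 of the 5 starburst amacrine markers, 7 of the 9 other amacrine markers and all 6 horizontal cell markers, against 15.9% of all genes tested. Ptf1a and Tfap2c of the amacrine list and Lhx1 of the horizontal list did not pass the filter on low counts. They are thus not among the genes tested, and of them Ptf1a and Lhx1 had that order. Sox2, a factor that starburst cells retain, had 45.7, 69.3 and 0.950 CPM in E18 replicates 1, 3 and 4, against 0.790 to 1.48 CPM at P5. Chat, the enzyme of acetylcholine synthesis, had 5.59, 10.9 and 0.287 CPM, against 0.237 to 0.797 CPM. Fezf1, a starburst factor, had 2.92, 5.58 and 0.0442 CPM, against 0.0226 to 0.152 CPM. Slc18a3, the vesicular acetylcholine transporter, followed with 6.84, 9.05 and 1.10 CPM, against 0.282 to 0.823 CPM. The remaining gene of the list, the choline transporter Slc5a7, did not follow, with 8.55, 7.92 and 8.44 CPM at E18 and 2.71 to 4.33 CPM at P5. All 5 starburst markers were called higher at E18 by edgeR, against 20.8% of all genes tested. In Sox2, Chat and Fezf1, E18 replicate 4 lay within the P5 range, so E18 replicates 1 and 3 carried the difference.

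The 9 other amacrine markers summed to 752, 939 and 636 CPM in E18 replicates 1, 3 and 4 and to 526 to 651 CPM at P5, most of it from Pax6, which RGCs also use. Of the 7 that were tested, 3 were called higher at E18, against 20.8% of all genes tested. Tfap2b, an amacrine factor and one of those 3, had 47.5, 119 and 1.62 CPM at E18 and 1.02 to 1.55 CPM at P5. Slc6a9, a glycine transporter, and Tfap2c did not have that order, and Gad2, which makes the transmitter GABA, had it with 9.48, 11.1 and 4.13 CPM at E18 against 8.01 to 13.2 CPM at P5. The ratio of E18 replicate 3 to E18 replicate 1 was 2.51 for Tfap2b, 2.31 for Megf10, 1.95 for Chat, 1.91 for Fezf1, 1.58 for Megf11, 1.52 for Sox2, 1.32 for Slc18a3 and 0.927 for Slc5a7. Among further amacrine markers this ratio was 2.43 for Tfap2a, 1.83 for Gad1, 1.70 for Slc32a1, 1.17 for Gad2, 1.14 for Pax6 and 1.03 for Slc6a9. Among horizontal cell markers it was 1.55 for Prox1, 1.35 for Onecut2, 1.19 for Onecut1 and 1.14 for Calb1. The 8 markers of progenitors and dividing cells were ordered otherwise than Megf10, being highest in E18 replicate 1. Lhx1, a defining gene of horizontal cells that did not pass the filter, was at 0.470, 0.954 and 0.0442 CPM at E18 and at most 0.0406 CPM at P5. The 6 horizontal cell markers, which include Tfap2a of the amacrine list, summed to 88.9, 119 and 65.3 CPM at E18 and 41.6 to 47.1 CPM at P5, most of it from Onecut2 and Calb1, which RGCs also use. The part of these cell types in the Megf10 and Megf11 values was not tested.

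**Figure D4:**
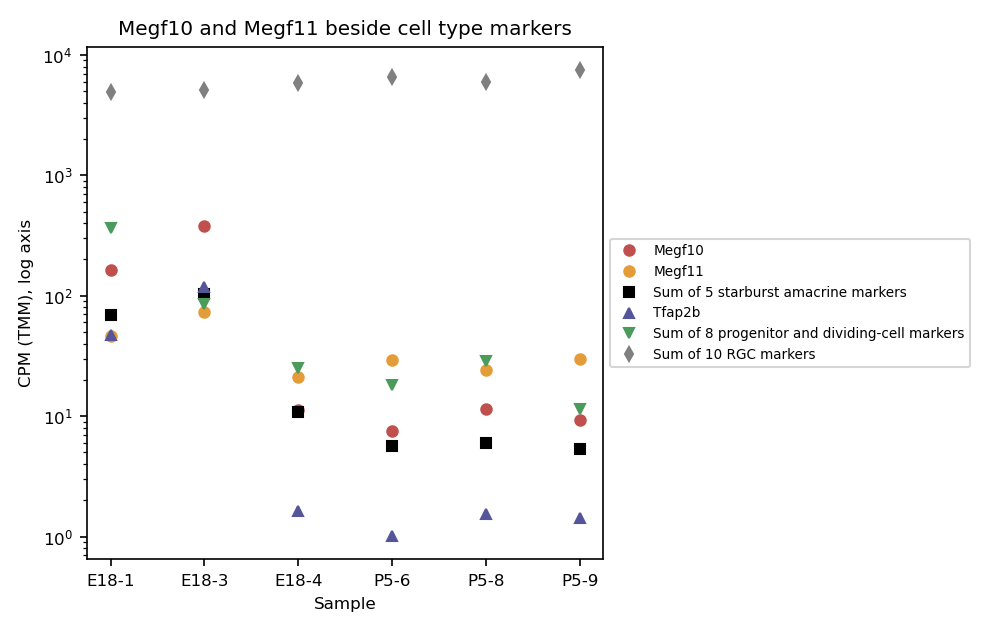
Megf10 and Megf11 beside marker genes of other cells in each sample, in TMM-scaled CPM on a log axis. Circles are the Megf genes, squares the sum of 5 starburst amacrine markers, upward triangles Tfap2b, downward triangles the sum of 8 progenitor and dividing-cell markers and diamonds the sum of 10 RGC markers. Megf10, Tfap2b and the starburst sum are highest in E18 replicate 3. Most of the starburst sum in E18 replicates 1 and 3 comes from Sox2. In E18 replicate 4, Megf10 lies within the P5 range, while Tfap2b (1.62 CPM) and the starburst sum (10.8 CPM) lie above it but far below the other two E18 samples, whereas the progenitor sum is highest in E18 replicate 1.

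Of 7 genes related to Megf10 and Megf11 by name, domain or pathway, 1 was lower at E18 and none was called higher by edgeR's quasi-likelihood test, which called 43.4% of all genes. At an unadjusted p below 0.05 in that test, 1 was higher and 3 lower, against 4197 higher and 4362 lower of all 16449 genes. DESeq2 called 1 higher and 2 lower, where it called 43% of all genes. The median log2 fold change of the 7 genes was -0.31. The gene called was Scarf2, a scavenger receptor, with 0.639, 0.499 and 0.729 CPM in E18 replicates 1, 3 and 4 and 0.902, 1.47 and 2.26 CPM in P5 replicates 6, 8 and 9 (log2 fold change -1.32, SE 0.359, edgeR adjusted p = 0.0181). The call was lost without E18 replicate 3 (edgeR adjusted p = 0.0746) or P5 replicate 9 (edgeR adjusted p = 0.0614). It was thus a gene of low level, as were Pear1, Scarf1, Megf6 and Gulp1, which had at most 5.21 CPM in any sample.

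To compare levels between genes, CPM was divided by the exon length of each gene in kilobases. Tenm3 had the highest mean of the 10 at both ages, at 40.7 ± 3.73 CPM per kilobase at E18 against 55.9 ± 4.35 at P5 (SD, n = 3 each). At P5, Dscam was next at 21.9 ± 0.641 CPM per kilobase, then Tenm2 at 14.2 ± 1.54 and Tenm4 at 9.84 ± 1.27, and the samples of these neighbours did not overlap. Tenm1, Sdk1, Dscaml1 and Megf11 followed with levels of 3.88, 3.31, 2.58 and 2.49 CPM per kilobase, each overlapping its neighbour. Sdk2, at 1.24 ± 0.304, and Megf10, at 1.22 ± 0.251 CPM per kilobase, were lowest and overlapped. At E18, Megf10 took position 3 by its mean of 23.8 ± 23.8 CPM per kilobase, with 21.2, 48.8 and 1.46 in replicates 1, 3 and 4, so that it overlapped both Dscam above it (26.4 ± 3.51) and Tenm2 below it (15.2 ± 1.36). Tenm4 followed at 12.7 ± 0.222 CPM per kilobase, below every Tenm2 sample, and then Sdk1 at 4.76 ± 0.151, below every Tenm4 sample. Megf11, Tenm1, Dscaml1 and Sdk2 were lowest at E18, with means of 4.18, 2.67, 2.04 and 1.75 CPM per kilobase, each overlapping its neighbour. With the longest coding sequence as the length, Megf10 had the highest mean at E18, Tenm4 stood above Tenm2 at both ages, and Tenm3 still led at P5.

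Adaptor genes encode proteins that bind the inner parts of Dscam or Sidekick proteins. Of 6 such genes, edgeR called 1 higher at E18 and none lower, against 43.4% called among all genes. At an unadjusted p below 0.05 by edgeR, 1 was higher and 1 lower, against 4197 higher and 4362 lower of all 16449 genes. DESeq2 called 1 higher and 0 lower, where it called 43% of all genes. The median log2 fold change of the 6 genes was 0.02. The gene called was Nck2, an adaptor that links receptors to actin, with 102.5, 102.8 and 117 CPM in E18 replicates 1, 3 and 4 and 71.5, 97.1 and 66.4 CPM in P5 replicates 6, 8 and 9. Its log2 fold change of 0.46 (SE 0.146, edgeR adjusted p = 0.0327) was called without P5 replicate 8 and lost in the other 5 fits that left out a sample (edgeR adjusted p = 0.0576 to 0.116). The scaffold Magi1, which binds the Sidekick tails, had 224 ± 16.0 CPM at E18 against 268 ± 20.9 CPM at P5 (SD, n = 3 each), with a log2 fold change of -0.26 (edgeR adjusted p = 0.0566). It was called lower without P5 replicate 8 (log2 fold change -0.34, edgeR adjusted p = 0.0118), but not when any other sample was left out (edgeR adjusted p = 0.0877 to 0.212). Its relatives Magi2 and Magi3 had log2 fold changes of 0.07 (SE 0.135) and -0.20 (SE 0.0931), the kinase Pak1 0.16 (SE 0.0877) and Nck1 -0.03 (SE 0.0984), none of them called by edgeR.

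A further 22 adhesion and guidance genes that shape retinal layering or subsets of RGC arbors had 11 members called lower at E18 and 2 called higher by edgeR, against 22.5% lower and 20.8% higher among all genes, and a median log2 fold change of -0.45. The largest falls were those of Cdh9, Cntn1 and Unc5d. Cntn1, a contactin of the axon surface, had 236, 240 and 294 CPM in E18 replicates 1, 3 and 4 and 1208, 894 and 1369 CPM in P5 replicates 6, 8 and 9. Its log2 fold change was -2.17 (SE 0.165, edgeR adjusted p = 0.000118), a wider difference than that of either Sidekick or of any teneurin gene. Unc5d, a netrin receptor of the Unc5 family, had 7.69 ± 0.949 and 30.5 ± 11.1 CPM, and Cdh9, a classical cadherin, 0.382 ± 0.121 and 2.42 ± 0.635 CPM (SD, n = 3 each), with log2 fold changes of -1.99 and -2.67 (edgeR adjusted p = 0.000613 and 0.000647). Higher at E18 were the semaphorin receptor Plxna3 (log2 fold change 1.12, edgeR adjusted p = 0.000769) and the contactin Cntn5 (log2 fold change 0.48, edgeR adjusted p = 0.00834). With E18 replicate 4 alone against P5, the log2 fold changes were -2.81 for Cdh9, -1.97 for Cntn1 and -2.11 for Unc5d. Those of Plxna3 and Cntn5 were 1.27 and 0.66.

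**Figure D5:**
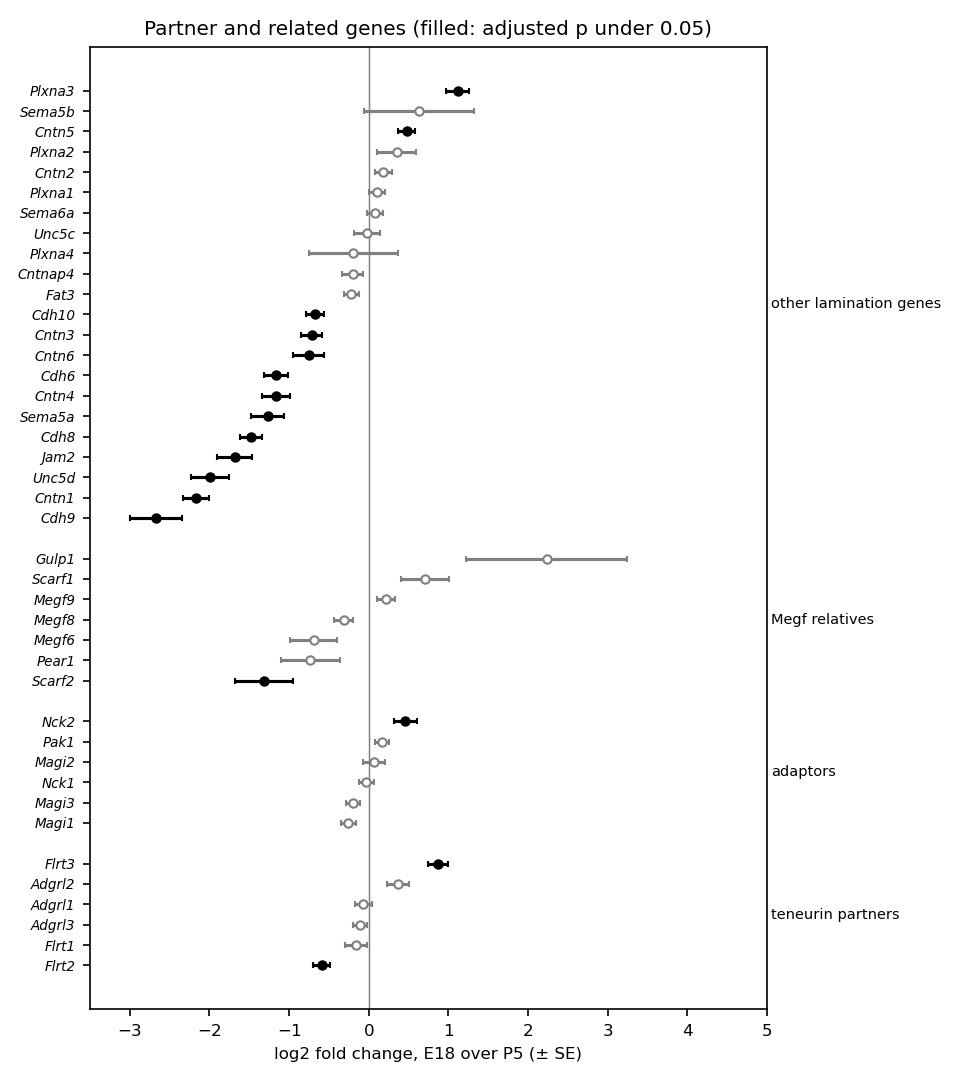
Log2 fold changes of E18 over P5 for 41 genes in 4 lists, with bars of 1 standard error, where filled points passed edgeR's quasi-likelihood test (adjusted p below 0.05). The other lamination genes reach from -2.67 for Cdh9 to 1.12 for Plxna3, with 11 filled points on the left, whereas the teneurin partners and adaptors stay between -0.59 and 0.87.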

How the data were processed

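The authors depleted ribosomal RNA (TruSeq with RiboZero Gold), sequenced paired-end reads, aligned them to mm10 with STAR and deposited raw read counts per RefSeq gene from HT-seq. The labels name the RNA as polyA. The strand setting is not stated, and 7 of the 10 genes overlap a gene on the opposite strand (Sdk2, Megf10 and Megf11 do not). The overlap was taken over the whole span of each gene, introns included. Whether reads of such partners entered the counts was not tested. A further 9 columns of values for single samples (6 of normalized counts and 3 of E18 against P5) and the authors' EdgeR results were not used. The header of E18 replicate 1 holds the numbers 1, 2 and 5, so that sample may be a pool of preparations, and n = 3 at E18 counts it as 1. None of the replicate pairs agreed within sampling noise (chi-square per degree of freedom 26.0 to 121).

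Counts were TMM-scaled, and edgeR 4.0.16 (R 4.3.3) fitted its quasi-likelihood model to the 16449 genes that passed filterByExpr, with age as the only term and Benjamini-Hochberg adjustment (threshold 0.05). Scripts were tested on simulated data. The standard error is the log2 fold change divided by the root of its F value. DESeq2 1.42.0 served as an alternative. Positions and exon lengths (union of exons) are those of GENCODE M21 for mm10, matched by symbol. The reads were counted on RefSeq genes, so exons that only GENCODE holds would add length without reads. The exon union is 21.0 kilobases for Tenm4, 17.7 for Tenm1 and 10.2 for Tenm3. Their longest coding sequences are 8.50, 8.19 and 8.15 kilobases. The teneurin shares and the levels per kilobase depend on this choice of length. Ratios within samples were compared by exact permutation in scipy 1.17.1. The members and lists were chosen with earlier results of these data known. The genes named are the 10 members, the teneurin partners, the adaptors, and up to 3 rises and 3 falls of each other list, and further genes, such as the markers, Plxna2 and Plxna4, were named after their values were seen.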

Additional observations from a re-analysis of the deposited data

How the results depend on the processing

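No paired analysis was possible because the ages share no replicate numbers. Of the 10 genes, Sdk1, Megf10, Tenm1, Tenm2 and Tenm3 kept their direction and their side of the threshold in 14 alternative settings, and none of the 10 reversed in them. Between 4 and 6 of the 10 were called when a sample was left out, where 27.3% to 52.5% of all genes were called. Sdk2 was also lost with scaling by library size only (adjusted p = 0.0576 in edgeR). The adaptor genes called numbered 0 to 2 when a sample was left out, 2 with library size only and 2 with at least 1 CPM in 3 samples. The Megf relatives called numbered 0 to 3 when a sample was left out, 2 with library size only, 3 by DESeq2, 3 by the likelihood ratio test, 2 by edgeR's exact test and 0 with at least 1 CPM in 3 samples, which left genes of low level untested. E18 replicate 4 alone against P5 was a comparison chosen after seeing the data. With 1 sample at E18, the calls could not be tested there. The log2 fold changes of called genes other than Megf10 kept their direction there (Flrt3 0.66, Flrt2 -0.38, Nck2 0.59 and Scarf2 -1.07, with the members given above), Megf11 reversed to -0.38, the log2 ratio of Dscam to Dscaml1 differed by 1.11, that of Megf10 to Megf11 by 0.66 and the Tenm2 share by 6.75 percentage points. Magi2 ranged from -0.069 (without E18 replicate 3) to 0.18 when a sample was left out, reversing also without P5 replicate 8 (-0.02) and without E18 replicates 1 and 3 (-0.16), and Nck1 ranged from -0.074 to 0.0085, reversing without P5 replicate 8. Without division by length the Tenm1 and Tenm4 shares differed by -1.57 and 8.99 percentage points, and with coding length, also chosen after seeing the data, by -1.56 and 8.84. The causes were not tested.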

Other observations

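Of the 22 other lamination genes, 6 had the order of E18 samples seen in Megf10 and Megf11 (Plxna2, Plxna4, Unc5c, Cdh6, Cntn2 and Cntn3), which is 27.3% against 15.9% of all genes tested. Plxna2 and Plxna4, plexins that act as receptors of Sema6a, were singled out after their values were seen, having the widest ratios of E18 replicate 3 to replicate 1 among these 6, at 1.59 and 2.20. Plxna4 had 8.56, 18.9 and 2.54 CPM in E18 replicates 1, 3 and 4, and 9.68, 9.76 and 14.9 CPM in P5 replicates 6, 8 and 9. Plxna2 had 138, 219 and 101 CPM at E18 and 99.4, 131 and 128 CPM at P5. E18 replicate 3 was thus above all P5 samples and E18 replicate 4 was below all P5 samples in Plxna4 and within their range in Plxna2. Neither was called by edgeR's quasi-likelihood test (log2 fold changes -0.19 and 0.35, standard errors 0.556 and 0.248). Their ligand Sema6a was even across the samples, with 178 ± 5.87 CPM at E18 and 168 ± 19.4 CPM at P5 (SD, n = 3 each), and a log2 fold change of 0.08 (standard error 0.101).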
